A study of Mus musculus with 7 samples.

Results

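The expression of 33 genes of cholesterol metabolism was compared between KLF13-deficient and wildtype oligodendroglia, out of 49315 genes counted. The genes were taken by symbol from a list that follows 3 steps, namely 20 enzymes of the synthesis from acetate to cholesterol, 5 genes of the SREBP system that controls these enzymes, and 8 genes of intracellular transport, export and the liver X receptors. All 33 symbols were matched, and all 33 genes had enough counts to be tested. The list does not hold every gene of these steps.

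RNA-seq libraries came from primary mouse oligodendroglia of genotype Klf13-wt (4 libraries, called controls) and Klf13-ko (3 libraries, called knockouts), each labelled a biological replicate. All cultures were derived from the brains of newborn pups of both sexes by shake-off and depletion of microglia, and all were kept in SATO medium with thyroid hormone for 6 days. The labels name no other allele or agent. Klf13, which encodes a zinc finger transcription factor of the Krüppel-like family, was deleted constitutively, so that every cell type left in the culture carried the deletion. Values are counts of reads per gene, scaled to a common library size (normalized counts), and the labels do not say whether replicates shared a litter or a preparation, so that the p-values measure the spread between these libraries.

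Cholesterol is made in the endoplasmic reticulum from acetyl units, first through mevalonate and isoprenoid intermediates to squalene, and then through lanosterol by demethylation, reduction and isomerization. When sterols are scarce, SCAP escorts the SREBP precursors to the Golgi, where their transcription factor domain is released, and when sterols are plentiful, INSIG proteins hold SCAP back. Oligodendrocytes need large amounts of cholesterol for myelin and make most of it themselves, whereas surplus sterols and oxysterols activate the liver X receptors, which induce export genes.

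Library sizes ran from 24507471 to 59596479 counts, and 6.03% to 18.0% of them came from 3 genes where ribosomal RNA reads gather. The targeted gene had 10915, 11769, 12000 and 10670 normalized counts in control libraries and 802, 876 and 961 in knockout libraries (log2 fold change -3.69). Of 11 oligodendrocyte markers, all detected in every library, 8 were lower in knockout libraries. The other 3, Sox10, Olig1 and Olig2, did not pass the test, with log2 fold changes of -0.31, -0.10 and -0.04. The summed level of all 11 was 723061 to 872227 in controls and 270208 to 314142 in knockouts. Mbp, a myelin structural gene that averaged 448251 in controls, had a log2 fold change of -1.78 and Cnp one of -0.96. The 8 astrocyte markers were all higher (100832 to 140390 against 200032 to 235486, with Gfap at 106851 and Aqp4 at 29471 in the knockout mean), and so were 7 of 8 neuron markers (24272 to 35523 against 64033 to 77306, with Map2 and Dcx the most abundant). With the replicate block 7 astrocyte markers were higher (Slc1a2 at an adjusted p of 0.0508, edgeR), and of the neuron markers 7 were higher and 1, Nefl, lower (0.0498). Of 6 markers of oligodendrocyte precursors, 2, Ptprz1 and Vcan, were higher and 0 lower (summed 144020 to 156950 against 181415 to 182787), and the most abundant, Gpr17, had an adjusted p of 0.0532 (edgeR). With the replicate block 2 were higher as well, but Ptprz1 had an adjusted p of 0.101 and Lhfpl3 one of 0.0466 (edgeR). None of the 10 microglia markers passed the test, but control replicate 3 stood apart at 96051, against 20737 to 23891 in the other controls and 20049 to 42331 in knockout libraries, with C1qa and C1qb leading. Of 8 fibroblast and mural markers 1, Dcn, was lower in edgeR's test, but 5 were lower with the replicate number as a block and 6 in DESeq2, and the summed level was 12890 to 68551 in controls against 5060 to 13650 in knockouts. The most abundant, Fn1 and Col1a1, had adjusted p of 0.057 and 0.0565 in edgeR's test and were among those that both of the other fits called. Of the 4 endothelial markers tested 1, Cdh5, was lower, the summed level was 457 to 1127 against 402 to 565, Flt1 and Kdr were the most abundant over all libraries (in controls Cdh5 exceeded Kdr), and the defining marker Cldn5 was at 0 in all controls. From bulk libraries, fewer cells of a type and less RNA per cell cannot be told apart, and the part of these differences in the results below was not tested.

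Of the 33 genes, 7 were lower in knockout libraries at an adjusted p of at most 0.05 (edgeR's quasi-likelihood test), where 12.2% of the 18352 genes tested were lower, and 0 were higher, against 11.6%. At an unadjusted p of 0.05 the number of higher genes was also 0, and it was 0 with DESeq2 and with limma voom. The 7 were Hsd17b7, Ebp, Idi1, Lbr and Sc5d of the synthesis step and Npc1 and Npc2 of the transport step. Only Hsd17b7 also passed a log2 fold change of -1, so that 1 of 33 lay near the background of 3.08%, and 0 of 33 passed a log2 fold change of 1 upwards, against 3.97%. The log2 fold change was negative for 30 genes and positive for 3, with a median of -0.26, against -0.0037 over all genes tested. For 7 genes every knockout lay below every control, a share close to the background of 18.0%, and for 0 genes every knockout lay above every control, where the background was 18.3%. These 7 were not quite the 7 called genes, since Sc5d overlapped between groups and Insig2, which did not pass the test, did not overlap.

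**Figure D1:**
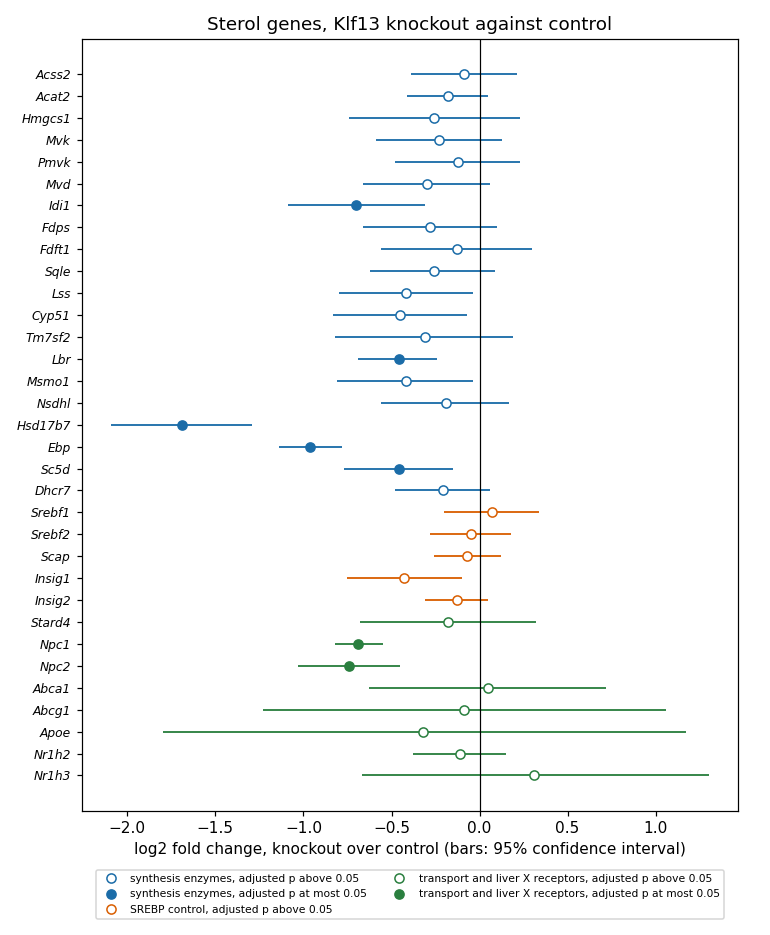
Log2 fold change of each of the 33 genes in knockout over control libraries, with bars for the 95% confidence interval, colored by step and filled where the adjusted p was at most 0.05. All 20 synthesis genes lie left of 0, with Hsd17b7 (-1.69) and Ebp (-0.96) farthest, whereas Apoe, Abcg1 and Nr1h3 have the widest intervals.

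Compared step by step, synthesis held 5 lower genes of 20 with 0 higher, where 12.2% of all genes tested were lower and 11.6% higher, and all 20 of its genes had a negative log2 fold change (median -0.29, from -1.69 to -0.09), as had 9242 of the 18352 genes tested. Without knockout replicate 3 the median was -0.16. In the SREBP control step 0 of 5 genes were lower or higher in edgeR's test (1 gene at an unadjusted p of at most 0.05, Insig1, which DESeq2 called and limma voom did not), and the median was -0.07 (-0.02 without control replicate 2 or knockout replicate 3, and -0.12 without knockout replicate 2). In the transport and liver X receptor step 2 of 8 genes were lower, the same share as in synthesis and against the same background of 12.2%, and 0 higher. Its median log2 fold change was -0.15, from -0.74 for Npc2 to 0.31 for Nr1h3, and without control replicate 3 it was 0.15. The steps were not tested against each other. The summed oligodendrocyte markers were lower in every knockout than in any control, as given above, and their part in these differences was not tested. Averaged over the 20 synthesis genes, the log2 level relative to the control mean was 0.01, 0.12, -0.24 and 0.12 in control libraries and -0.21, -0.43 and -0.58 in knockout libraries. Thus 2 of 3 knockouts lay below all controls, and knockout replicate 1 lay just above control replicate 3. For the SREBP genes the same average was -0.06, 0.03, -0.05 and 0.08 in controls and -0.08, -0.06 and -0.21 in knockouts, all within a narrow range. For the transport genes it was -0.20, -0.21, 0.59 and -0.17 in controls and -0.30, -0.12 and 0.02 in knockouts, and control replicate 3 exceeded all other libraries.

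**Figure D2:**
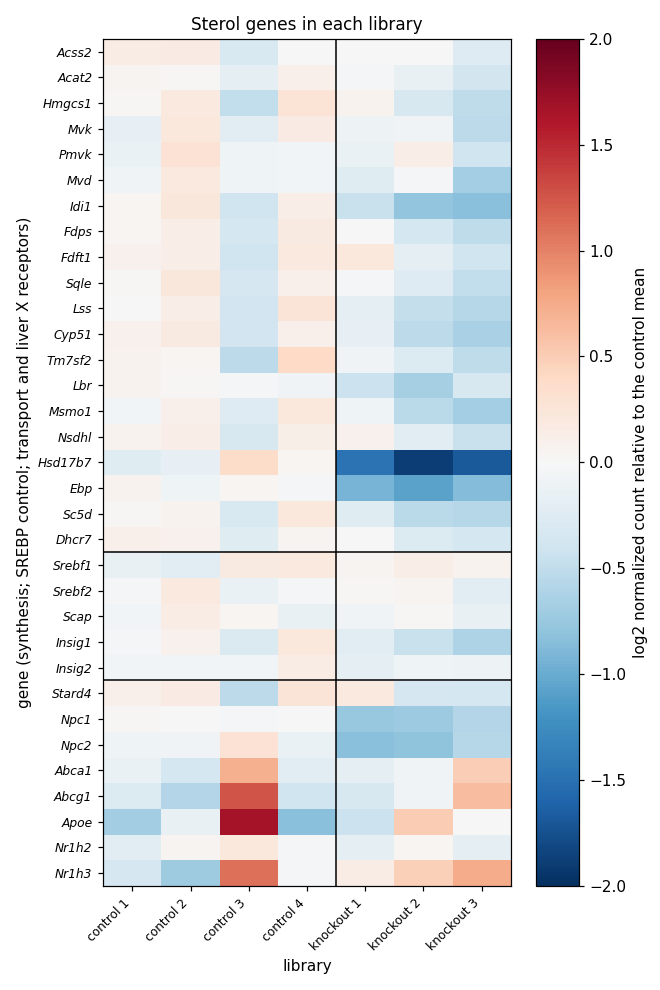
Normalized counts of the 33 genes (rows) in the 4 control and 3 knockout libraries (columns), as the log2 ratio to the control mean from blue (lower) to red (higher), with lines between the steps. Blue cells in the knockout columns are deepest for Hsd17b7, Ebp, Idi1, Npc1 and Npc2, and control replicate 3 is pale blue for most synthesis genes and red for Abca1, Abcg1, Apoe and Nr1h3.

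Most enzymes of the synthesis step moved together from library to library within each group. Control replicate 3 was the lowest control for 16 of the 20 enzymes, and its exceptions were Pmvk, Lbr, Hsd17b7 and Ebp. In the knockouts, replicate 1 was highest for 15 enzymes and replicate 3 lowest for 17. Lbr and Ebp followed neither order, as knockout replicate 3 was their highest knockout. Hsd17b7 was the single enzyme for which control replicate 3 was the highest control. The summed microglia markers were highest in control replicate 3 among controls, and lowest in replicate 1 and highest in replicate 3 among knockouts. The part of microglia in the order of the enzymes was not tested.

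The enzymes are given in pathway order, first those from acetate to squalene, a subdivision made after the values were seen. Of these 9 genes 1 was lower, a share near the background of 12.2%, and 0 were higher, and the median log2 fold change was -0.23. Acss2, which makes acetyl-CoA from acetate, had 1089 to 1501 normalized counts in controls and 1120 to 1352 in knockouts (log2 fold change -0.09, 95% confidence interval -0.39 to 0.21). Acat2, the thiolase that joins acetyl units, had 3661 to 4408 and 3193 to 4037 (interval -0.41 to 0.05). Its transcript shares a stretch of 98.7% identity with Tcp1 and one of 97.7% with Acat3, so that counts of unique hits may miss some of its reads.

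Hmgcs1, the synthase of the mevalonate precursor and a textbook SREBP target, was the most abundant enzyme. It had 23699, 26755, 16592 and 28114 normalized counts in control libraries and 24601, 18705 and 16357 in knockout libraries. The groups overlapped, with knockout replicate 1 above 2 of the controls and a log2 fold change of -0.26 (interval -0.74 to 0.23, adjusted p = 0.423, edgeR). The kinases Mvk and Pmvk and the decarboxylase Mvd, which turn mevalonate into the isoprenoid unit, had log2 fold changes of -0.23, -0.12 and -0.30 with intervals that all included 0. Normalized counts of Mvk were 1087 to 1466 in controls and 873 to 1195 in knockouts, those of Pmvk 887 to 1184 and 736 to 1070, and those of Mvd 1400 to 1704 and 920 to 1443. The groups overlapped in all 3 genes.

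Idi1, the isomerase of the isoprenoid unit, was the only early enzyme that passed the test. It lies on chr13:8885501-8892451 of GRCm38 and had 1510, 1706, 1108 and 1608 normalized counts in control libraries and 1076, 848 and 819 in knockout libraries. Every knockout lay below every control, although knockout replicate 1 and control replicate 3 nearly met. Controls averaged 1483 ± 263 (SD, n = 4) and knockouts 914 ± 141 (SD, n = 3), which gives a log2 fold change of -0.70 (SE 0.17, adjusted p = 0.0227, edgeR). The adjusted p reached 0.0863 when single libraries were left out, and the call was lost without control replicate 4, knockout replicate 2 or knockout replicate 3. Its transcript holds stretches identical to another gene model, Gm13502, over 684 bases, where unique counting can lose reads in both groups.

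Fdps, the synthase of farnesyl diphosphate, had 1519 to 2182 normalized counts in controls and 1357 to 1948 in knockouts (log2 fold change -0.28, interval -0.66 to 0.10). Fdft1, which joins farnesyl units into squalene, had 2149 to 3256 and 2155 to 3280, and its knockout replicate 1 was the highest of all 7 libraries. For Fdft1 the log2 fold change was -0.13 and became 0.002 without knockout replicate 3. Fdft1 shares 26.8% of its exonic bases with Ctsb on the opposite strand and Fdps 26.7% with a gene model on the same strand. The value of Fdft1 is uncertain because the strand setting of the counting is not known, and that of Fdps because shared bases on 1 strand cannot be assigned to either gene. Fdps also shares a stretch of 98.9% identity with Gm3571 over 1062 bases, and Fdft1 a stretch of 97.4% with Gm6781 over 1249 bases. There unique counting can lose reads in both groups.

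The enzymes after squalene held the other 4 lower genes, among 11 measured, where 12.2% of all genes tested were lower, and the parts of the pathway were not tested against each other. Their median log2 fold change was -0.42. Sqle, the oxygen-dependent epoxidase that opens this part of the pathway, had 4333 to 6396 normalized counts in controls and 3925 to 5359 in knockouts (log2 fold change -0.26, interval -0.62 to 0.09). Lss, the cyclase that forms lanosterol, had 3921, 4291, 3011 and 4718 in control libraries and 3485, 2823 and 2633 in knockout libraries. Cyp51, the lanosterol demethylase, had 7413, 7863, 5333 and 7495 in control libraries and 6196, 4807 and 4452 in knockout libraries. In both genes 2 of 3 knockouts lay below all controls, while knockout replicate 1 lay above control replicate 3.

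Neither Lss nor Cyp51 passed the adjusted test, with log2 fold changes of -0.42 (interval -0.80 to -0.04, adjusted p = 0.106, edgeR) and -0.45 (interval -0.83 to -0.07, adjusted p = 0.0884, edgeR). Both passed without control replicate 3, at -0.54 and -0.56. Msmo1, the oxidase that starts the removal of the methyl groups at the fourth carbon, had 2947 to 4048 normalized counts in controls and 3317, 2409 and 2189 in knockouts. Its log2 fold change was -0.42 (adjusted p = 0.107, edgeR), and among the alternatives run it passed only without knockout replicate 1, at -0.60. Nsdhl, the dehydrogenase acting next, had 1015 to 1405 and 938 to 1347, a log2 fold change of -0.19.

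Hsd17b7 fell most of all 33 genes. It encodes the reductase that completes the same methyl removal and that also acts on sex steroids. It lies on chr1:169949535-169969241 of GRCm38 and had 6963, 7338, 10636 and 8466 normalized counts in control libraries and 2966, 2236 and 2573 in knockout libraries. The groups were far apart, and control replicate 3 was the highest library. Knockouts averaged 2592 ± 366 (SD, n = 3), or 31.0% of the 8350 ± 1652 in controls (SD, n = 4), and the log2 fold change was -1.69 (SE 0.17, interval -2.09 to -1.29, adjusted p = 0.000913, edgeR). With each library left out in turn it stayed between -1.78 and -1.55. The study displays Hsd17b7 among lipid synthesis genes measured in these same libraries, so that the value here is not independent of that display.

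Ebp fell to 51.4% of its control level with little spread in either group. It encodes the isomerase that shifts the ring double bond of the sterol intermediate, lies on chrX:8185329-8193512 and had 1272, 1150, 1248 and 1201 normalized counts in control libraries and 636, 577 and 666 in knockout libraries. The groups were far apart, and the control coefficient of variation was 4.42%. The log2 fold change was -0.96 (SE 0.08, interval -1.14 to -0.78, adjusted p = 0.000326, edgeR), and with single libraries left out the adjusted p stayed between 0.0011 and 0.00458.

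The reduction of the double bond left by Cyp51 can be made by both Lbr and Tm7sf2. Lbr, which also encodes the lamin B receptor of the nuclear envelope, lies on chr1:181815335-181843046 and had 967, 934, 911 and 881 normalized counts in control libraries and 688, 581 and 740 in knockout libraries. Every knockout lay below every control (log2 fold change -0.46, SE 0.10, adjusted p = 0.0144, edgeR), and without knockout replicate 1 the adjusted p was 0.0535. Tm7sf2 had 712, 696, 467 and 892 in control libraries and 645, 556 and 472 in knockout libraries, with overlapping groups and a log2 fold change of -0.31 (interval -0.82 to 0.19). The interval of Tm7sf2 includes the value of Lbr. Lbr shares 9.24% of its exonic bases with Dnah14 on the opposite strand and Tm7sf2 15.3% with Vps51.

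Of the last enzymes, Sc5d, the desaturase that acts after Ebp, lies on chr9:42251595-42264256 and had 4645, 4776, 3711 and 5306 normalized counts in control libraries and 3847, 3137 and 3073 in knockout libraries. Knockout replicate 1 lay above control replicate 3. Its log2 fold change was -0.46 (SE 0.13, adjusted p = 0.0435, edgeR), the weakest of the 7 calls. It was lost without any single library other than control replicate 3, with adjusted p up to 0.14, and with upper quartile scaling or total counts. Dhcr7, the final reductase, had 2259 to 2892 in controls and 2096 to 2667 in knockouts (log2 fold change -0.21, interval -0.48 to 0.06).

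**Figure D3:**
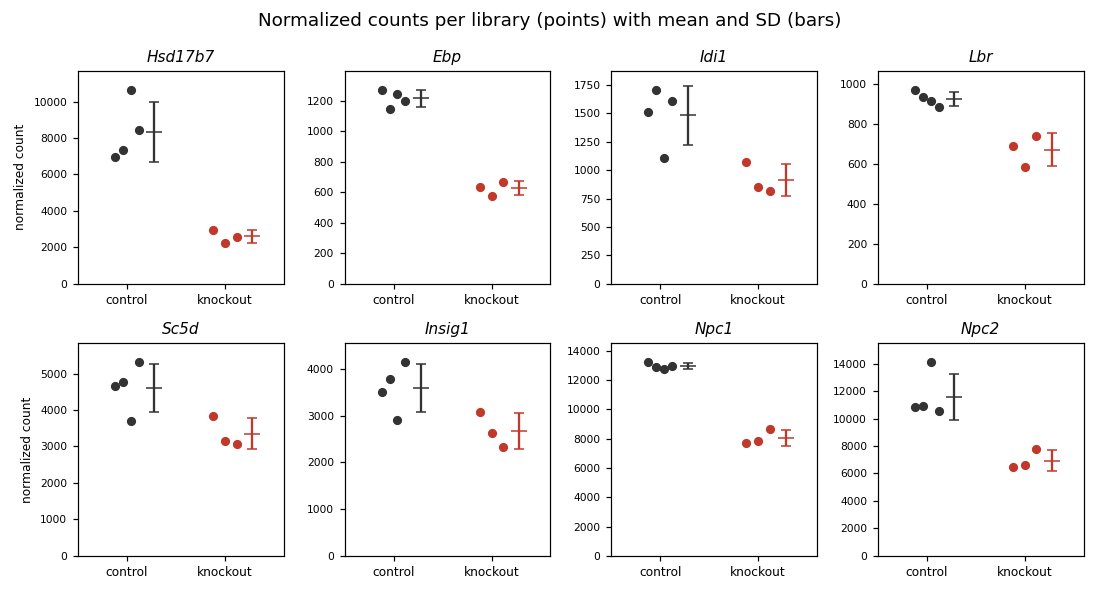
Normalized counts of 8 genes in each control (dark) and knockout (red) library, with the mean and SD of each group beside the points and axes from 0. The groups are separate for Hsd17b7, Ebp, Idi1, Lbr, Npc1 and Npc2, and overlap for Sc5d and Insig1, where control replicate 3 is the lowest control.

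In the SREBP control step neither the transcription factor genes nor their escort passed the test. Srebf2, whose product drives mainly cholesterol genes, had 10582, 12272, 9796 and 10417 normalized counts in control libraries and 10845, 11202 and 9152 in knockout libraries (log2 fold change -0.05, interval -0.28 to 0.18). Srebf1, whose product drives mainly fatty acid genes, had 2559, 2449, 3235 and 3257 in control libraries and 2948, 3121 and 2986 in knockout libraries (0.07, interval -0.20 to 0.34). The groups overlapped in both genes, and both intervals included 0. Scap had 4343 to 5318 and 4315 to 4876 (-0.07, interval -0.26 to 0.12) and shares 13.2% of its exonic bases with an opposite-strand gene.

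Insig1, which retains SCAP and is itself a textbook SREBP target, was the gene of this step with the largest difference. It had 3513, 3784, 2911 and 4137 normalized counts in control libraries and 3080, 2616 and 2318 in knockout libraries. Like most synthesis enzymes, it was lowest among controls in control replicate 3, highest among knockouts in knockout replicate 1 and lowest in knockout replicate 3, and 2 of 3 knockouts lay below all controls. The log2 fold change was -0.43 (SE 0.14, interval -0.75 to -0.10), with an adjusted p of 0.0626 in edgeR's test. With the replicate number as a block, in which control replicate 4 has no partner and adds nothing to the contrast, it was -0.35 with an adjusted p of 0.0373 (edgeR), and without control replicate 3 it was -0.52 and also passed. Insig2, the paralog, had 1222, 1225, 1228 and 1408 in control libraries and 1101, 1198 and 1182 in knockout libraries, so that the groups did not overlap, but the log2 fold change was only -0.13 (interval -0.31 to 0.05, adjusted p = 0.262, edgeR).

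In the transport step both genes of lysosomal cholesterol export fell. NPC2, a soluble protein of the lysosome lumen, hands cholesterol to the membrane protein NPC1, and loss of either causes Niemann-Pick disease type C. Npc1, on chr18:12189693-12236400, had 13202, 12877, 12742 and 12959 normalized counts in control libraries and 7670, 7813 and 8636 in knockout libraries. The controls agreed within a coefficient of variation of 1.49%, the smallest of the 33 genes, and the knockout mean was 62.1% of theirs (log2 fold change -0.69, SE 0.06, interval -0.82 to -0.55, adjusted p = 0.000389, edgeR). Npc2, on chr12:84754560-84773112, had 10868, 10904, 14091 and 10512 in control libraries and 6436, 6585 and 7788 in knockout libraries. Here control replicate 3 was far above the other controls, and every knockout lay below every control. For Npc2 the log2 fold change was -0.74 (SE 0.12, interval -1.03 to -0.45, adjusted p = 0.00659, edgeR), and both genes stayed called with each library left out, Npc1 between -0.74 and -0.64 and Npc2 between -0.83 and -0.63. Stard4, a soluble carrier that moves cholesterol between membranes, had 708 to 1225 and 800 to 1161 (-0.18, interval -0.68 to 0.32).

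The export genes and the liver X receptors gave no call, and control replicate 3 was the highest control for all 5 of them. Apoe, the lipoprotein that glia secrete to carry cholesterol, was the most abundant of the 33 genes per length of exon, with 83756, 122472, 428417 and 75831 normalized counts in control libraries and 100195, 192786 and 134510 in knockout libraries. Control replicate 3 exceeded every other library more than 2-fold, and the other 3 controls overlapped with the knockouts. Apoe had a log2 fold change of -0.32 with an interval from -1.80 to 1.17, and without control replicate 3 it was 0.60. Abca1, the membrane transporter that loads lipid onto such particles, had 15812, 13601, 28393 and 14801 in control libraries and 15363, 16535 and 24385 in knockout libraries (0.05, interval -0.63 to 0.72). Abcg1, a second transporter of this route, had 2083, 1670, 6044 and 1908 in control libraries and 2013, 2395 and 3850 in knockout libraries (-0.09, interval -1.23 to 1.06, and 0.55 without control replicate 3).

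Nr1h3 and Nr1h2 encode the alpha and beta liver X receptors. Nr1h2 had 1669 to 2269 normalized counts in controls and 1723 to 2026 in knockouts (log2 fold change -0.11, interval -0.38 to 0.15). Nr1h3, the least abundant of the 33 genes per length of exon, had 103, 79.4, 279 and 126 in control libraries and 144, 182 and 218 in knockout libraries. All knockouts lay above 3 of the 4 controls and below control replicate 3. The log2 fold change was 0.31 (interval -0.67 to 1.30, adjusted p = 0.646, edgeR), and without control replicate 3 it was 0.83 and passed (adjusted p = 0.0484, edgeR), the only member called higher in any setting.

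The summed level of the 10 microglia markers was 23891, 20737, 96051 and 22122 in control libraries and 20049, 25619 and 42331 in knockout libraries, and none of the 10 was at 0 in any library. Apoe, Abca1, Abcg1 and Nr1h3 were all highest in control replicate 3, as these markers were, and Abca1, Abcg1 and Nr1h3 were next highest in knockout replicate 3, where the markers ranked next as well. Apoe instead was next highest in knockout replicate 2. The part of microglia in these values was not tested. Npc2 was also highest in control replicate 3, whereas Npc1 was lowest there among the controls, and both were lower in knockout libraries without that library.

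**Figure D4:**
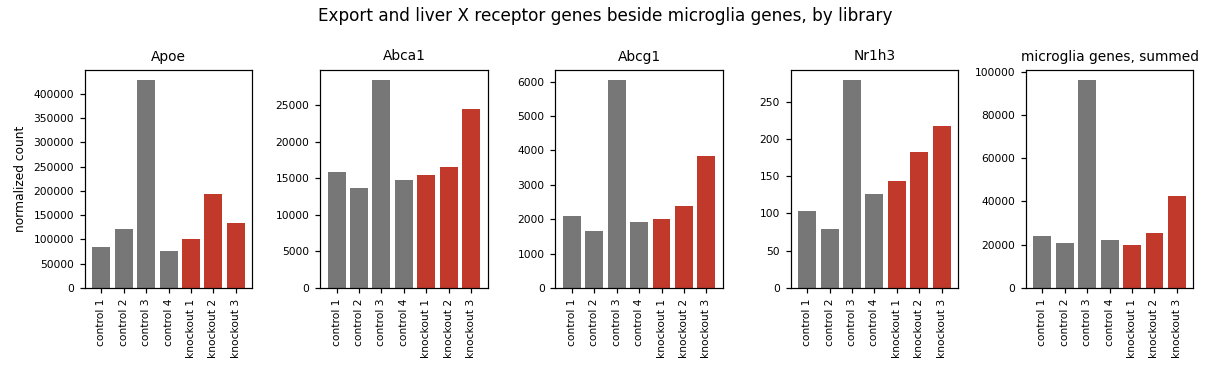
Normalized counts of Apoe, Abca1, Abcg1 and Nr1h3 and the summed normalized counts of 10 microglia markers in each control (gray) and knockout (red) library, on linear axes from 0. Control replicate 3 is the highest library in all 5 panels (428417 for Apoe, 96051 for the markers).

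To see what the promoters of these genes share, 300 bases around a RefSeq start of each gene were scanned, from 250 before to 50 after. RefSeq windows on GRCm38.p6 were found for 27 of the 33 genes, without Fdps, Fdft1, Sqle, Stard4, Npc1 and Abcg1. The RefSeq start nearest to the start of the gene in the deposited positions was 7718 bases from it for Nr1h3, 645 for Lbr and 523 for Tm7sf2, and at most 214 for the other genes. The letters CCAAT, the core bound by NF-Y, a partner of SREBPs, were found on either strand in 16 of 17 synthesis genes (94.1%) and 4 of 5 SREBP genes, but in 1 of 5 transport genes, Npc2, where 41.1% of the windows of 27025 genes held them. Without Nr1h3 the share of transport genes was 1 of 4. A gene with several starts counted where any of its windows held the letters. A sterol response element in the form TCACNCCAC, on either strand, was found only in Hmgcs1, where 1.44% of all genes held one. The letters ACNCCC or CCNCCC with A, G or T in place of N, cores of GC and CACCC boxes that Krüppel-like factors can bind, were found on either strand in 17 of 17 synthesis genes, 5 of 5 SREBP genes and 4 of 5 transport genes, but also in 78.1% of all genes and 92.1% of those tested. Such cores can overlap with each other and with the sterol response element. A match is a run of letters and not a shown binding site, and other forms of these elements were not searched.

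The windows below are of the synthase with the sterol response element, the lower synthesis enzymes with non-overlapping groups, the SREBP regulator with the largest difference, the lower transport gene with an entry and, as a contrast, an export gene. They read 5′ to 3′ on the strand of the gene, with CCAAT (or ATTGG, its reverse) and the sterol response element in capitals. On GRCm38.p6 the windows are chr13:119690101-119690400 on the plus strand for Hmgcs1, chr1:169969156-169969455 on the minus strand for Hsd17b7, chrX:8193463-8193762 on the minus strand for Ebp, chr13:8885356-8885655 on the plus strand for Idi1, chr1:181842352-181842651 on the minus strand for Lbr, chr5:28071162-28071461 on the plus strand for Insig1, chr12:84773063-84773362 on the minus strand for Npc2, and chr4:53159846-53160145 on the minus strand for Abca1.
Hmgcs1: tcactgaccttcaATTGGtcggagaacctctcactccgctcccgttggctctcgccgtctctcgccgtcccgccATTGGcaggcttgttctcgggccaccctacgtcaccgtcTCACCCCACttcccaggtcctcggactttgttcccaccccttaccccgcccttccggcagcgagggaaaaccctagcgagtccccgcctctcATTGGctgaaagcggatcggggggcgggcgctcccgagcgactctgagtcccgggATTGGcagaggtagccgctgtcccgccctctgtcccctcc
Hsd17b7: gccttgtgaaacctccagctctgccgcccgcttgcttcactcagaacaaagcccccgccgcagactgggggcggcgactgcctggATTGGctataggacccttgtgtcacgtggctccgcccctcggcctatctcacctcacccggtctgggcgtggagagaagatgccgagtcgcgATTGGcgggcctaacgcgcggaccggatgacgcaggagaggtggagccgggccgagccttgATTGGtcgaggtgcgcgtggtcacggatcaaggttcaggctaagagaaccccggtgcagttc
Ebp: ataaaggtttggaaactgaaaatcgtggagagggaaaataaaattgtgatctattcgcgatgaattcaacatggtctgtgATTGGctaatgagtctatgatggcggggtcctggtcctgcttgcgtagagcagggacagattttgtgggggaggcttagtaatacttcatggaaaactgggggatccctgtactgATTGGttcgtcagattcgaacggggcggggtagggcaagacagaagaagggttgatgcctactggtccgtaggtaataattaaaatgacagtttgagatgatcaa
Idi1: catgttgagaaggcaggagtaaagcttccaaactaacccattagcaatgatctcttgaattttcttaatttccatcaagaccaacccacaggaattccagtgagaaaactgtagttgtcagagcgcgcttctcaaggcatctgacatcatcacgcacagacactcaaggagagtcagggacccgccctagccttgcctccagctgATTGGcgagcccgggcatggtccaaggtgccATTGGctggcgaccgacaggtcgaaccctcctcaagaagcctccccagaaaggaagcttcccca
Lbr: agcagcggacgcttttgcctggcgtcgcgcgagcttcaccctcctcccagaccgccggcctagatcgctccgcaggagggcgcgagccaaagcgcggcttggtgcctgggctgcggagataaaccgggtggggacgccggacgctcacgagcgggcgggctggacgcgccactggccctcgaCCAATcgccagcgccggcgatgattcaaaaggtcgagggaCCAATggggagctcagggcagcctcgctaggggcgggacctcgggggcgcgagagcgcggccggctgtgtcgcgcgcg
Insig1: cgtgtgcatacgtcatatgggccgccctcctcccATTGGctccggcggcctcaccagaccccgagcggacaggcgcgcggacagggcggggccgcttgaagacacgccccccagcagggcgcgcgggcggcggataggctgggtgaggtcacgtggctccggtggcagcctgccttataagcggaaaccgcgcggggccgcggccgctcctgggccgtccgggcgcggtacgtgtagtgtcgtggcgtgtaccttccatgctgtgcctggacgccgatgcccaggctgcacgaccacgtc
Npc2: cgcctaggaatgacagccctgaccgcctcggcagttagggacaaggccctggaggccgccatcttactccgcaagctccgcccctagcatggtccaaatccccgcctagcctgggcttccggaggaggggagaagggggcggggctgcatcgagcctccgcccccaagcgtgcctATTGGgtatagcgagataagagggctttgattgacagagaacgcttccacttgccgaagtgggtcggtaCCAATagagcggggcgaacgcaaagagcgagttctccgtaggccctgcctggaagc
Abca1: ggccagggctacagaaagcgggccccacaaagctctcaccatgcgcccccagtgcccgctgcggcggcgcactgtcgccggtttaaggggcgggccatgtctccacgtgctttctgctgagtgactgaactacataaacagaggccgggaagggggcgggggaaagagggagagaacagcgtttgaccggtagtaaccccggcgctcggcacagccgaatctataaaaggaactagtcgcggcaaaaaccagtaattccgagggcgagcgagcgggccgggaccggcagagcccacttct

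Among the printed windows, that of Hmgcs1 held 4 CCAAT matches, with the sterol response element starting at -137 from the RefSeq start. Hsd17b7 held 3, Ebp, Idi1, Lbr and Npc2 held 2 each, Insig1 held 1 and Abca1 held 0. Hmgcs1, with both elements, did not pass the test and had an interval of -0.74 to 0.23. Hsd17b7 and Ebp, which fell most, held CCAAT but no match to TCACNCCAC. A link between these letters and the fold changes was not tested. CCAAT was found in all 5 lower synthesis genes and in most of the others.

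On the RPKM scale (reads per length of exon and per library size, computed from the counts), control levels spanned from 1890 for Apoe to 1.33 for Nr1h3. After Apoe came Hmgcs1 at 167, Npc2 at 80.9, Srebf2 at 49.1 and Abca1 at 39.9. Hsd17b7 stood sixth at 37.2 in controls, next to Acat2 at 37.0 and Cyp51 at 36.2, from which it did not differ beyond the spread of its libraries, and its knockout level was 11.6. Idi1 went from 9.63 to 5.93, Npc1 from 27.5 to 17.1 and Npc2 from 80.9 to 48.4 on the same scale.

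Of 38 other genes of sterol handling, taken from a list of such genes, 8 were lower and 5 higher, where 12.2% and 11.6% of all genes tested were. The share of higher genes thus lay near the background. With upper quartile scaling 6 were lower and 7 higher, where 1744 and 2263 of all 18352 genes tested were. The median log2 fold change of the 38 genes was -0.12. By size the largest called differences belonged to Apod, a lipid-binding secreted protein (mean normalized counts of 3824 in controls and 424 in knockouts, log2 fold change -3.19), Cyp46a1, the hydroxylase that turns cholesterol into its brain export form (-1.60), and Abca2, a lysosomal lipid transporter abundant in oligodendrocytes (-1.26). Next came Cyp7b1, an oxysterol hydroxylase (1.13), Lrp8, an apolipoprotein E receptor (0.78), and Nceh1, a cholesteryl ester hydrolase (-0.72). When single libraries were left out, the adjusted p reached 0.067 for Cyp7b1 and 0.062 for Nceh1 (edgeR), so that these calls could be lost. The proteases Mbtps1 and Mbtps2, which release SREBPs, had log2 fold changes of -0.06 and -0.02, with intervals of -0.18 to 0.07 and -0.18 to 0.13. Fatty acid synthesis, the other branch under SREBP control, held 1 lower gene of 7, a share near the background of 12.2%. It was the desaturase Scd2 (-0.35, adjusted p = 0.0222, edgeR), and all 7 log2 fold changes were negative with a median of -0.26. With the replicate block 1 gene was lower as well, but Scd2 had an adjusted p of 0.0504 and Elovl6 one of 0.0435 (edgeR). Acly and Fasn, which make the acetyl-CoA and the fatty acid chain, had -0.08 and -0.18.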

How the data were processed

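The study sequenced RNA from cultured primary mouse oligodendroglia, and the authors deposited 1 table of raw counts per library with the position and exonic length of each gene on GRCm38. Per the submitters' processing notes, reads were trimmed with Trimmomatic 0.36, mapped with STAR 2.5.2b and counted as unique hits in exons with Subread 1.5.2. Neither the annotation release nor whether counting used strand is given in the sources used here.

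Symbols were found for 48970 of 49315 identifiers. The deposited counts were filtered with filterByExpr, scaled with TMM factors and compared by edgeR's quasi-likelihood test (edgeR 4.0.16, R 4.3.3, robust, group as the only term, two-sided), with Benjamini-Hochberg adjustment over all 18352 genes tested. The study's own test, DESeq2 (version 1.42.0), limma voom (version 3.58.1) and other scalings, filters and covariates served as alternatives. The procedure was also run on simulated counts with the same spread for every gene. These libraries differ from that, so that no conclusion is drawn from the simulation. Calls required an adjusted p of 0.05 or less. For normalized counts, each count was divided by its TMM-scaled library size and brought back to the average library, and RPKM were computed from the same counts and the deposited exonic lengths. Libraries held 24507471 to 59596479 counts, and the SD and SE given include counting error.

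The 33 genes and all other lists were chosen with earlier results of these data known. Named were all 33 genes, Klf13, up to 6 other sterol genes and up to 3 fatty acid genes with the largest called changes, and the 2 most abundant genes of each marker list. Mbtps1, Mbtps2, Acly, Fasn, Elovl6, Sox10, Olig1, Olig2, Vcan, Lhfpl3, Slc1a2, Nefl, Dcn, Cdh5 and Cldn5 were named after their values were seen. The list of other sterol genes had 39 symbols, of which 1 was not matched. Exon overlaps were read from the deposited positions, and copies were searched among transcripts (at least 95% identity over at least 150 bases).

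Labels number the replicates but do not say what a number stands for. Deviations from the group means correlated at 0.11, 0.46 and 0.17 between libraries of the same number and at -0.53 to 0.20 between others, across genes, which are not independent replicates. All 3 exceeded 0.1, but so did some libraries of different number, so that a pairing by number is not shown. As an alternative the number was fitted as a replicate block, in which control replicate 4 has no partner.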

Additional observations from a re-analysis of the deposited data

Results flagged for a closer look

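In 8 of the 33 genes 1 control library lay apart from the other 3, farther than expected in 1 of 20 groups of 4 by chance. In the 3 knockouts no such test was made. Control replicate 3 was the highest control for Apoe at 428417 normalized counts (others 75831 to 122472), Abcg1 at 6044 (others 1670 to 2083), Abca1 at 28393 (others 13601 to 15812) and Npc2 at 14091 (others 10512 to 10904), and the lowest for Nsdhl at 1015 (others 1341 to 1405). Control replicate 2 was the highest control for Pmvk at 1184 (others 887 to 933) and Mvd at 1704 (others 1400 to 1430). Control replicate 4 was the highest control for Insig2 at 1408 (others 1222 to 1228). The summed microglia markers were also highest in control replicate 3, and their part in these values was not tested.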

How the results depend on the processing

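Across 17 alternatives, 7 of them leaving out 1 library, Hsd17b7, Ebp, Npc1 and Npc2 stayed called lower. The numbers of lower genes among the 33 ran from 5 to 10 with libraries left out (10 without control replicate 3) against 7, and those of higher genes from 0 to 1. For synthesis the number ran from 3 to 7 against 5, with 3 without control replicate 4, knockout replicate 2 or knockout replicate 3. At a log2 fold change of 1, 2 genes were lower with the share of ribosomal RNA-collecting genes as a covariate, and 1 to 2 with libraries left out (2 without knockout replicate 3). For SREBP control, 1 gene, Insig1, was lower in DESeq2 and with the replicate block, and 0 to 1 with libraries left out. The block changed no other call among the 33 genes. For transport, 0 to 1 genes were higher with libraries left out, and the median log2 fold change of -0.15 became -0.04 in limma voom, 0.04 with the covariate and -0.22 to 0.15 with libraries left out. For SREBP control the median of -0.07 became -0.03 with upper quartile scaling or total counts, 0.00 with the covariate and -0.12 to -0.02 with libraries left out, and for synthesis that of -0.29 ran from -0.42 to -0.16 with libraries left out. Among the other sterol genes, 5 to 7 were lower and 2 to 6 higher with libraries left out, against 8 and 5, the fewest without knockout replicate 2. Over all genes tested, 1317 were lower and 850 higher without that library, against 2246 and 2122 with it. With upper quartile scaling 6 of the other sterol genes were lower and 7 higher, which turned the balance. It turned over all genes tested as well, with 1744 lower and 2263 higher. With the covariate 9 of the other sterol genes were lower and 7 higher, and over all genes tested 2482 and 2673. For fatty acid synthesis, 0 genes were lower with upper quartile scaling or total counts, 3 without the ribosomal RNA-collecting genes, 2 in DESeq2 and 0 to 3 with libraries left out, against 1.

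Some differences changed sign, none of them called. Abcg1 and Apoe had log2 fold changes of 0.11 and 0.02 in limma voom. With the covariate Srebf2, Scap, Abcg1 and Apoe had 7e-05, 0.004, 0.13 and 0.44. With libraries left out, the log2 fold changes ran from -8e-05 to 0.16 for Srebf1, -0.11 to 0.04 for Srebf2, -0.18 to 0.35 for Abca1, -0.40 to 0.55 for Abcg1, -0.60 to 0.60 for Apoe, -0.27 to 0.01 for Pmvk and -0.30 to 0.002 for Fdft1. The cause was not tested.

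With 3 knockouts, intervals of the export genes span more than 1 log2 unit, and changes inside an interval are not shown to be absent.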
